A study of Mus musculus with 12 samples.

Results

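Cdhr1, 2610528A11Rik, Lrit1, Lrit2 and Rgr are 5 protein-coding genes that lie side by side on mouse chromosome 14. They were found by gene name, 5 of the 54532 genes in the table, and were chosen by the FPKM of Cdhr1 and 2610528A11Rik in Stat3 ko against WT, where both were low. Values from Stat3 ko libraries are therefore a description of the members, with no test. RNA was sequenced from hyperplastic mammary tissue of female mice, strain FVB/N, of the MIC model. In MIC mice doxycycline, here at 2 mg/ml, switches on both the polyoma middle T oncogene and Cre in mammary epithelial cells, so that a floxed gene can be deleted in the cells that carry the oncogene. The samples form 3 groups of 4 libraries, MIC Stat3 ko, MIC Chi3l1 ko and MIC WT, which all carry the MIC transgenes, all received doxycycline and all have titles giving week 2. The labels state neither the knockout alleles nor the age of the mice, and give each library a number of its own without saying whether it came from a separate mouse, so p-values measure the spread between libraries, which may be technical.

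Cdhr1 encodes a cadherin-related membrane protein, also called photoreceptor cadherin, found where rods and cones build new outer segment discs. Rgr encodes an opsin of the retinal pigment epithelium and Müller cells that helps to regenerate visual pigment, and Lrit1 encodes a leucine-rich repeat membrane protein of the photoreceptor synapse, of which Lrit2 is a paralog. 2610528A11Rik, which RefSeq also lists as Gpr15l, is of another kind. It encodes a small secreted peptide, made in mouse by barrier epithelia such as skin and colon, that attracts T cells carrying the receptor GPR15. STAT3 is a transcription factor that cytokine receptors activate, and dimers of STAT proteins bind DNA of the form TTCNNNGAA.

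The 2 genes that stood low in Stat3 ko are transcribed in the same direction, one behind the other. On GRCm38, 2610528A11Rik (ENSMUSG00000096001) lies at chr14:37102140-37114022 on the minus strand, and its coding transcript has 3 exons. Downstream of it, after a gap of 3792 bases, comes Cdhr1 (ENSMUSG00000021803) at chr14:37077857-37098347, also minus, with 17 exons in its single transcript. Lrit2 (ENSMUSG00000043418, chr14:37067929-37073743, 3 exons) and Lrit1 (ENSMUSG00000041044, chr14:37054830-37064946, 4 exons) follow on the plus strand. Rgr (ENSMUSG00000021804, chr14:37034909-37048964, 7 exons) is on the minus strand. None of the 5 gene bodies overlap, and each had the same coordinates in the GENCODE annotation. Whether reads were counted by strand is not given in the sources used here, so antisense reads within a gene cannot be told apart from its own.

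The start regions of Cdhr1 and 2610528A11Rik are shown because these were the members with measurable RNA. Both are RefSeq promoters on GRCm38.p6, minus strand, from 250 bases before the annotated start to 50 after it, at chr14:37098298-37098597 for Cdhr1 and at chr14:37110052-37110351 for 2610528A11Rik. For 2610528A11Rik this is the start of the coding transcript, at 37110101, which lies inside the gene body. A noncoding transcript of the gene starts at 37114022, and its start region was not examined. Capitals mark matches to TATAA or TAATCC on either strand.
Cdhr1: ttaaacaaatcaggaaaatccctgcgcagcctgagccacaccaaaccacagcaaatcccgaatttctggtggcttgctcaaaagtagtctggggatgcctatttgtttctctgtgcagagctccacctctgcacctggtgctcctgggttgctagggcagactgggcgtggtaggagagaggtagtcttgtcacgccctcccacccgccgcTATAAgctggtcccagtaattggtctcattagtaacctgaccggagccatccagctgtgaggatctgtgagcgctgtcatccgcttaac
2610528A11Rik: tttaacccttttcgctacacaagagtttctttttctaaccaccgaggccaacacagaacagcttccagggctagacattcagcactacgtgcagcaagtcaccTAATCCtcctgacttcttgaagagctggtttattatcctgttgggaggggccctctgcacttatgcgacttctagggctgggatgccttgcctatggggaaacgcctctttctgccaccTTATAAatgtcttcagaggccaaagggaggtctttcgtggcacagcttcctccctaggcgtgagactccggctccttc

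Each of these promoters holds a TATAA, the core letters of a TATA box, beginning 39 bases before the start in Cdhr1 and 27 bases before it in 2610528A11Rik. In 2610528A11Rik a match on the opposite strand overlaps it by all but 1 base. TATAA occurs on either strand in 24.9% of 32851 RefSeq promoters of the same length. TTCNNNGAA, which reads the same on both strands, is in neither promoter and in no promoter of the other 3 members, while 8.30% of all promoters hold it. That says only that these letters are not in these 300 bases. TAATCC, the letters bound by the photoreceptor homeobox factor CRX, is in the promoters of 2610528A11Rik, Lrit1, Lrit2 and Rgr, not in that of Cdhr1, and in 7.06% of all promoters. The motifs were chosen with these promoters in view, and a match is not evidence of binding.

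The libraries held 16217143 to 22607123 counts. Stat3 was 12.2 to 18.7 FPKM (fragments per kilobase of gene length, scaled to the counts of the library) in Stat3 ko libraries, 46.7 to 53.2 in Chi3l1 ko and 46.2 to 49.7 in WT. Chil1, the symbol the table uses for Chi3l1, had 249 to 823 counts per Stat3 ko library, 0 to 2 per Chi3l1 ko library and 5734 to 13318 per WT library. Genes of the mitochondrial genome took 1.15% to 4.79% of counts in Stat3 ko, 1.03% to 2.23% in Chi3l1 ko and 1.002% to 1.51% in WT. Of the 5 members, 2 passed the filter of at least 1 FPKM in at least 4 libraries, Cdhr1 and 2610528A11Rik, among 13643 genes that did.

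Cdhr1 was abundant RNA in WT glands and scarce in Stat3 ko glands. It stood at 3.05, 1.41, 2.11 and 2.52 FPKM in the Stat3 ko libraries 1 to 4. It stood at 46.4, 35.8, 48.8 and 46.9 FPKM in the Chi3l1 ko libraries and at 44.8, 34.4, 43.1 and 27.2 FPKM in the WT libraries. Every Stat3 ko library was below every library of the other groups, and Chi3l1 ko overlapped WT. The means were 2.27 ± 0.692 FPKM in Stat3 ko, 44.5 ± 5.87 in Chi3l1 ko and 37.4 ± 8.18 in WT (SD, n = 4 each), so Stat3 ko averaged 6.07% of WT. These levels rest on 110 to 220 counts per library in Stat3 ko and 2256 to 3545 in WT, so counting error was small beside the spread between libraries. The WT mean of Cdhr1 exceeded that of 90.3% of the tested genes.

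2610528A11Rik, the gene of the GPR15 ligand, showed a similar arrangement at a lower level. It stood at 2.54, 2.94, 1.44 and 1.15 FPKM in Stat3 ko libraries 1 to 4. The Chi3l1 ko libraries held 21.7, 17.1, 24.6 and 19.3 FPKM and the WT libraries 26.8, 15.3, 23.3 and 16.5 FPKM. Again the 4 Stat3 ko libraries lay below all 8 others, and Chi3l1 ko and WT overlapped. The means were 2.02 ± 0.858 FPKM in Stat3 ko, 20.7 ± 3.24 in Chi3l1 ko and 20.5 ± 5.49 in WT (SD, n = 4 each), with Stat3 ko at 9.84% of WT. Here counts were fewer, 18 to 44 per library in Stat3 ko and 262 to 397 in WT, and the coefficient of variation in Stat3 ko was 42.6%, against 26.8% in WT.

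**Figure D1:**
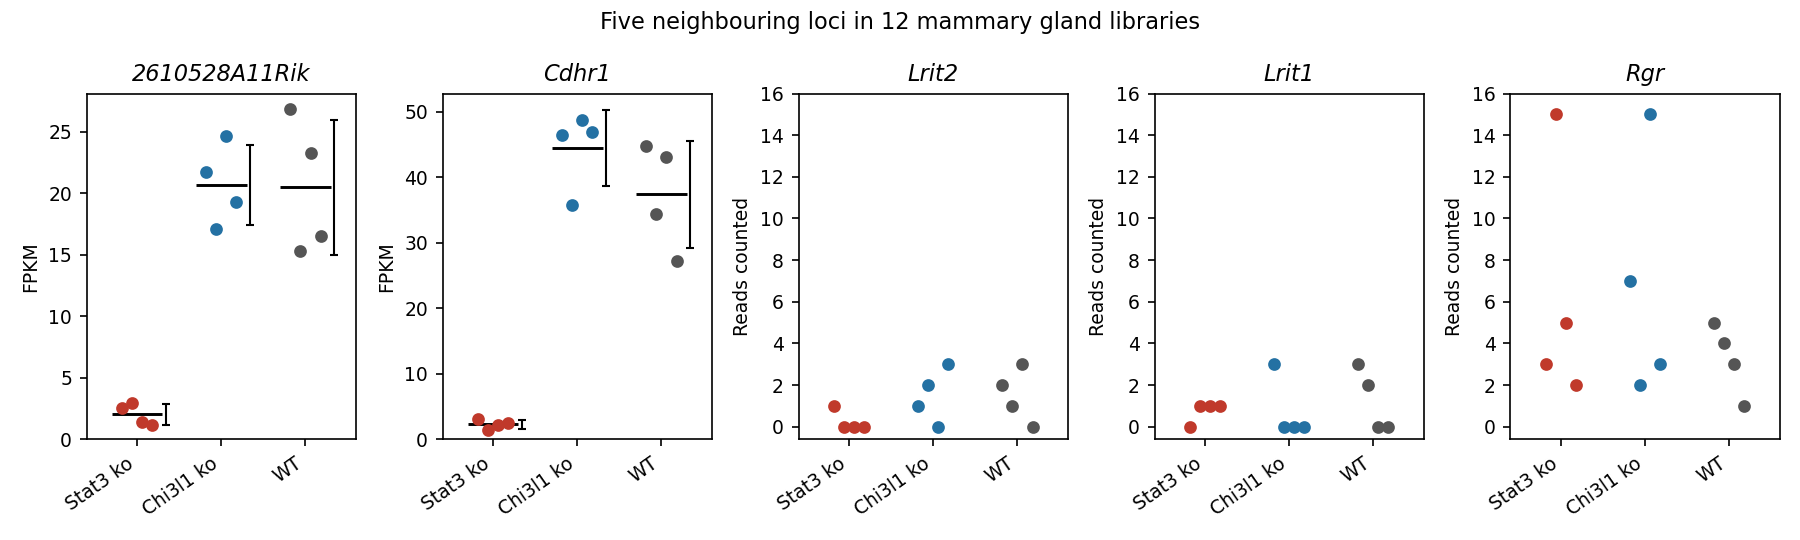
FPKM of 2610528A11Rik and Cdhr1, and reads counted for Lrit2, Lrit1 and Rgr, in each library (points), by group; horizontal lines and error bars in the 2 FPKM panels are the mean and SD of 4 libraries. The Stat3 ko points of 2610528A11Rik (1.15 to 2.94) and Cdhr1 (1.41 to 3.05) lie below all others, and the other 3 genes have at most 15 reads in any library.

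On the log2(FPKM + 1) scale, which understates changes of genes with low values, Cdhr1 differed between Stat3 ko and WT by −3.55 ± 0.19 and 2610528A11Rik by −2.84 ± 0.23 (limma estimate ± SE). Among the 13643 tested genes they took places 9 and 18 counted from the lowest difference. Of all tested genes 8.39% were called lower and 5.61% higher in this comparison at an adjusted p under 0.05. Both genes are among the lower ones, and since the choice of genes used this contrast nothing is read from that. The authors' deposited table gives log2 fold changes of −4.05 for Cdhr1 and −3.36 for 2610528A11Rik in the same comparison. Every Stat3 ko library of both genes was below every library of the other groups, as it was for 7.86% of tested genes. Set against Chi3l1 ko, which uses the same Stat3 ko libraries, the differences were −3.81 ± 0.19 for Cdhr1 and −2.88 ± 0.23 for 2610528A11Rik, where 13.2% of tested genes were called in either direction.

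Loss of Chi3l1 was a comparison the choice of genes had not used, although its WT libraries are the same. Neither gene was called there. Cdhr1 averaged 119% of WT and differed by 0.26 ± 0.19 (95% interval −0.15 to 0.68, limma adjusted p = 0.9998). 2610528A11Rik averaged 100.9% of WT and differed by 0.04 ± 0.23 (95% interval −0.46 to 0.53, adjusted p = 0.9998). Differences of the size seen in Stat3 ko lie outside these intervals. In this comparison 0.00733% of tested genes were called with limma, which is 1 gene, Chil1 itself. There were 222 genes at an unadjusted p under 0.05, and edgeR called 1 gene and DESeq2 called 8.

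The pair did not keep a fixed proportion in Stat3 ko. Cdhr1 FPKM divided by 2610528A11Rik FPKM was 1.201, 0.478, 1.47 and 2.19 in Stat3 ko libraries 1 to 4. It was 1.98 to 2.43 in Chi3l1 ko and 1.65 to 2.24 in WT. The Stat3 ko libraries spread most widely, with 1 of the 4 inside the range of the other groups. Stat3 ko 2 had the lowest Cdhr1 and the highest 2610528A11Rik of its group, and was the only library in which 2610528A11Rik was the higher of the pair. At 18 to 44 counts of 2610528A11Rik the ratio is also the least precise in this group.

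**Figure D2:**
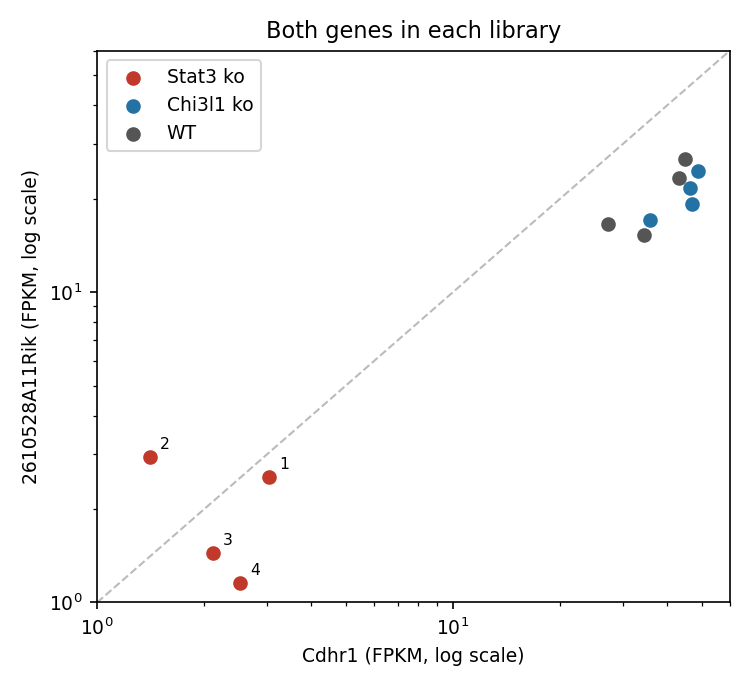
Cdhr1 FPKM (x axis) and 2610528A11Rik FPKM (y axis), both on log scales, in each of the 12 libraries; numbers mark the Stat3 ko libraries and the dashed line is equality. The Stat3 ko libraries lie at 1.41 to 3.05 FPKM of Cdhr1 with ratios of 0.478 to 2.19 between the genes, away from the 8 other libraries.

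The 3 remaining members, the retinal genes, were at or near 0 in every group. Lrit1 had 3 counts over the 4 Stat3 ko libraries, 3 over Chi3l1 ko and 5 over WT, and was at 0 in 6 of 12 libraries. As CPM, a share of all counts in parts per 1000000, this was 0.0425 in Stat3 ko (95% Clopper-Pearson interval 0.00876 to 0.124), 0.0380 in Chi3l1 ko (0.00783 to 0.111) and 0.0693 in WT (0.0225 to 0.162). Lrit2 had 1, 6 and 6 counts in Stat3 ko, Chi3l1 ko and WT, or 0.0142 CPM (0.000358 to 0.0788), 0.0759 CPM (0.0279 to 0.165) and 0.0832 CPM (0.0305 to 0.181). These intervals pool the 4 libraries of a group and cover counting error only. They overlap between groups, which is not a test of a difference, and the reads were too few to compare the groups.

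Rgr was the least scarce of the 3, with 25 counts in Stat3 ko (2 to 15 per library), 27 in Chi3l1 ko (2 to 15) and 13 in WT (1 to 5). That is 0.354 CPM in Stat3 ko (0.229 to 0.522), 0.342 in Chi3l1 ko (0.225 to 0.497) and 0.180 in WT (0.0960 to 0.308). Of the counts of each knockout group 15 came from a single library, and no library reached 0.2 FPKM, the highest being 0.174 in Stat3 ko 2. With all genes kept in the fit, limma gave an adjusted p of 1 for each of Rgr, Lrit1 and Lrit2 in Chi3l1 ko against WT. No test is given for their values in Stat3 ko against WT, the contrast on which the locus was chosen.

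The expressed genes on either side, read from the same fit, were not called in Stat3 ko. Ghitm, whose product sits in the inner mitochondrial membrane, lies 6069 bases beyond the 2610528A11Rik gene body on the same strand. It stood at 139.7, 100.3, 65.0 and 67.5 FPKM in Stat3 ko, 61.6, 93.8, 59.5 and 58.9 in Chi3l1 ko and 59.8, 65.7, 57.6 and 65.4 in WT. The difference between Stat3 ko and WT was 0.51 ± 0.23, which did not pass (limma adjusted p = 0.149), and that between Chi3l1 ko and WT was 0.11 ± 0.23 (adjusted p = 0.9998). The 3 highest libraries of Ghitm, Stat3 ko 1, Stat3 ko 2 and Chi3l1 ko 2, were also the 3 with over 2% of counts from the mitochondrial genome. The part of that share in the Ghitm values was not tested.

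Ccser2, which lies 66131 bases beyond Rgr, stood at 14.04 ± 3.42 FPKM in Stat3 ko, 14.3 ± 1.49 in Chi3l1 ko and 13.6 ± 1.05 in WT (SD, n = 4 each). It differed by 0.02 ± 0.14 between Stat3 ko and WT (adjusted p = 0.917) and by 0.07 ± 0.14 between Chi3l1 ko and WT (adjusted p = 0.9998). For Stat3 ko against WT the 95% interval was −0.29 to 0.34. Within 1 Mb of the 5 genes the table lists 20 other genes, of which 18, pseudogenes and noncoding RNAs for the most part, were listed at 0 in every library, leaving Ghitm and Ccser2. On the whole of chromosome 14, 6.67% of 450 tested genes were called lower in Stat3 ko, against 8.39% of all tested genes, with median differences of −0.0042 and −0.024.

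**Figure D3:**
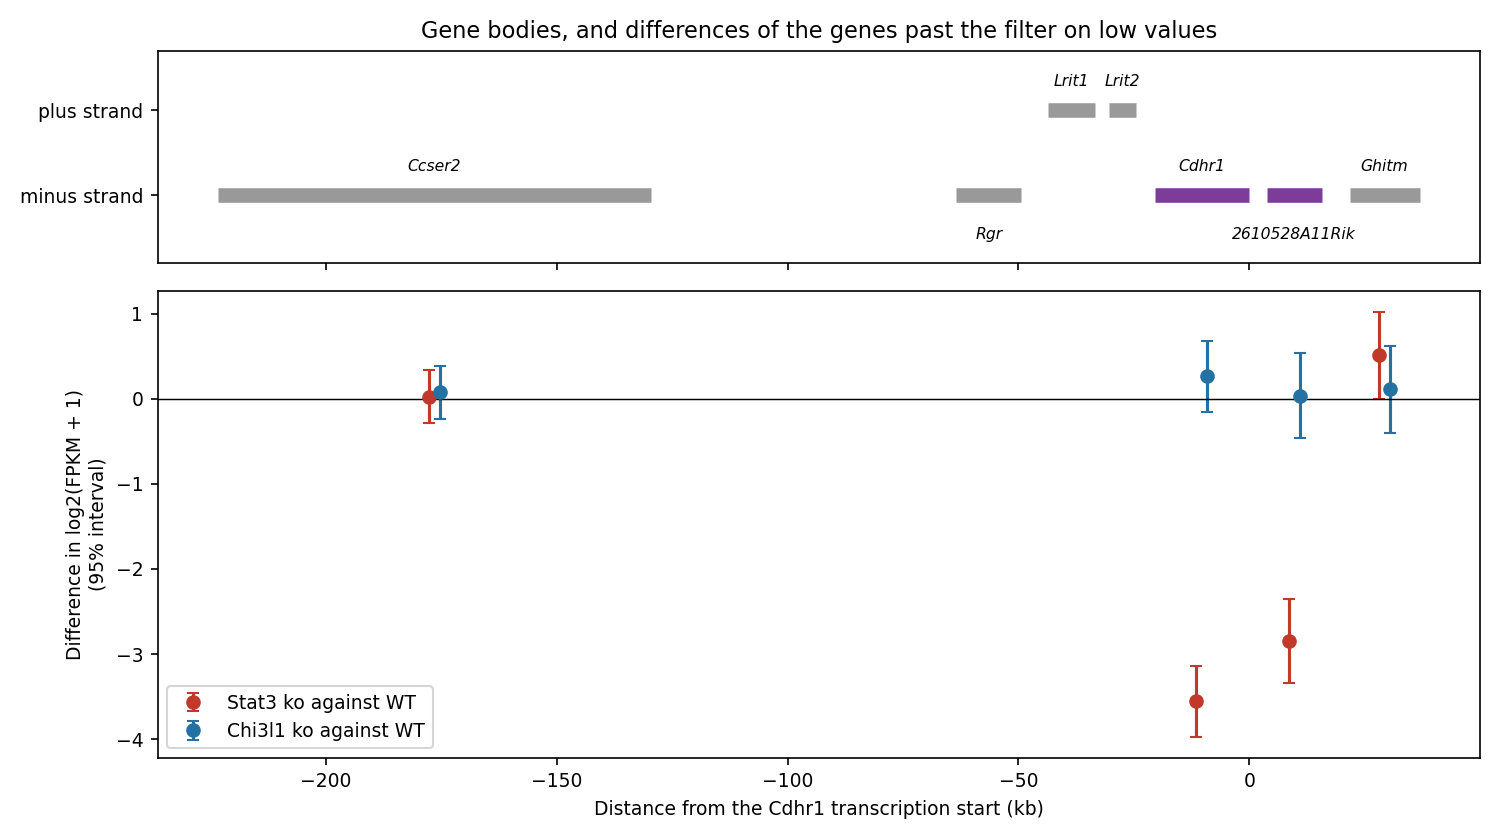
Upper panel, gene bodies by strand against distance from the Cdhr1 transcription start in kb. Lower panel, differences in log2(FPKM + 1) with 95% limma intervals for the genes past the filter. Stat3 ko against WT gives −3.55 for Cdhr1 and −2.84 for 2610528A11Rik beside 0.51 for Ghitm and 0.02 for Ccser2, while all 4 intervals for Chi3l1 ko against WT include 0.

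Pairs of neighbours were counted across the genome. Of 13614 pairs of tested genes that follow each other on a chromosome, 163 (1.197%) had both genes called lower in Stat3 ko. In 3 of them both differences were below −2, a bound set after the values were seen. Cdhr1 and 2610528A11Rik, 3792 bases apart, are among these pairs. They were chosen because both were low in Stat3 ko, so nothing is read from that. The paralogs Saa1 and Saa2 (−5.39 and −5.11), 8809 bases apart, encode serum amyloid proteins and, being close in sequence, may share reads. Clca3a2 and Clca2 (−4.69 and −2.13), of the calcium-activated chloride channel regulator family, lie 250768 bases apart. Cdhr1 and 2610528A11Rik are not of one family.

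Profiles most like those of the pair were sought among all tested genes, by the mean absolute difference of standardised log2(FPKM + 1) over the 12 libraries. The nearest to Cdhr1 were Itga8 (0.110 SD), an integrin subunit, Nqo1 (0.115), a quinone reductase, Fam174b (0.123), Lrg1 (0.129) and the urate transporter gene Slc2a9 (0.135). 2610528A11Rik came in place 18 of 13642 for Cdhr1, at 0.159 SD. The nearest to 2610528A11Rik were Stat3 itself (0.121 SD), Plppr3 (0.139), the milk protein gene Lalba (0.146) and then Cdhr1 in place 4, followed by Clca3a1 (0.169). These measures follow mainly the low Stat3 ko group that chose the pair, and the libraries share their depth and makeup, so they are a description.

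Genes with roles akin to those of the members were read next, from lists chosen with results of these data known. For scale, in Stat3 ko against WT 4654 of the 13643 tested genes had an unadjusted p under 0.05 with limma. At an adjusted p under 0.05 limma called 8.39% lower and 5.61% higher. With edgeR 1075 genes were called lower and 1279 higher, and with DESeq2 1541 lower and 2092 higher. Of 25 photoreceptor genes 3 passed the filter, and limma called 0 of them in Stat3 ko against WT (1 lower and 1 higher at an unadjusted p under 0.05, 0 with edgeR and 0 with DESeq2). Of the 25 genes 3, Crx, Nrl and Lrit3, had 0 counts in all 12 libraries, and each of the others had some. The 25 together summed to 12.1 to 15.0 FPKM in Stat3 ko, 15.1 to 18.6 in Chi3l1 ko and 14.6 to 21.5 in WT. Little of this sum came from Gnat1, Pde6b, Opn1sw and Prph2, which reached at most 0.14, 0.12, 0.11 and 0.017 FPKM. Prom1, another gene of this list, is also on the list of hormone-sensing luminal genes read below, so the sum is not a measure of photoreceptors. The median of the 3 tested genes was −0.50, against −0.02 over all tested genes.

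Among 23 cadherins and cadherin-related genes 11 were tested. Of these 4 fell in Stat3 ko (3 with edgeR, 4 with DESeq2) and limma called 0 higher (2 at an unadjusted p under 0.05, 2 with edgeR and 2 with DESeq2), with a median of −0.58. Pcdh18 fell by 1.45 ± 0.26 (limma adjusted p = 0.00714) and Pcdh1, a protocadherin of epithelia, by 0.87 ± 0.16 (0.00847), both smaller than the difference of Cdhr1. Cdh3, the P-cadherin gene of myoepithelium, fell by 1.07 ± 0.29 (0.0328) and Fat1 by 0.58 ± 0.17 (0.0432).

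Gpr15, the receptor gene of the 2610528A11Rik product, had too few reads to compare, with 28 counts in Stat3 ko (0 to 17 per library), 13 in Chi3l1 ko (0 to 9) and 11 in WT (0 to 6). Of 11 genes of GPR15 and of lymphocyte homing to mucosa 4 were tested, and the integrin genes Itgb7 (2.08 ± 0.52, limma adjusted p = 0.0267) and Itga4 (0.90 ± 0.19, 0.0147) rose in Stat3 ko, or 1 of the 4 without the 3 libraries above 2% mitochondrial counts. The median was 0.73, and limma called 0 lower (0 at an unadjusted p under 0.05, 0 with edgeR and 0 with DESeq2). Of 16 tested epithelial antimicrobial and secreted defence genes 6 fell and 3 rose, with a median of −0.78, and Saa1, Saa2, Chil1 and Lcn2 led the falls. In Chi3l1 ko against WT the call among the antimicrobial genes was Chil1, by limma, edgeR and DESeq2 alike.

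In whole glands, fewer cells of a type and less RNA per cell cannot be told apart, so markers of the cell types were read beside the pair. Summed over 12 genes of epithelia in general, Epcam and Krt8 among them and all detected, FPKM was 1227, 1400, 2696 and 2987 in Stat3 ko libraries 1 to 4, 2202 to 2967 in Chi3l1 ko and 2387 to 3539 in WT. Stat3 ko 1 and 2 lay below every other library, and Stat3 ko 3 and 4 lay within the WT range. Of the 12 genes 2 fell by limma, with a median of −0.80 over the 12, and 7 were lower and 0 higher at an unadjusted p under 0.05. With edgeR 2 fell and with DESeq2 5, and without the 3 libraries above 2% mitochondrial counts 1 fell and 1 rose. The part of the epithelial share in the values of the pair was not tested. Per 100 FPKM of the epithelial sum, Cdhr1 was 0.128 ± 0.081 FPKM in Stat3 ko, 1.66 ± 0.081 in Chi3l1 ko and 1.35 ± 0.40 in WT (SD, n = 4 each), so Stat3 ko was at 9.45% of WT. 2610528A11Rik was 0.127 ± 0.094 in Stat3 ko, 0.773 ± 0.077 in Chi3l1 ko and 0.733 ± 0.218 in WT, with Stat3 ko at 17.4% of WT. On this scale too the Stat3 ko libraries did not overlap the others for either gene. The share of all tested genes for which that holds was not computed, and the pair was chosen for low values in Stat3 ko. Nothing is therefore read from this separation. Per 100 FPKM of Epcam alone, Stat3 ko was at 13.4% of WT for Cdhr1 and 23.6% for 2610528A11Rik.

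**Figure D4:**
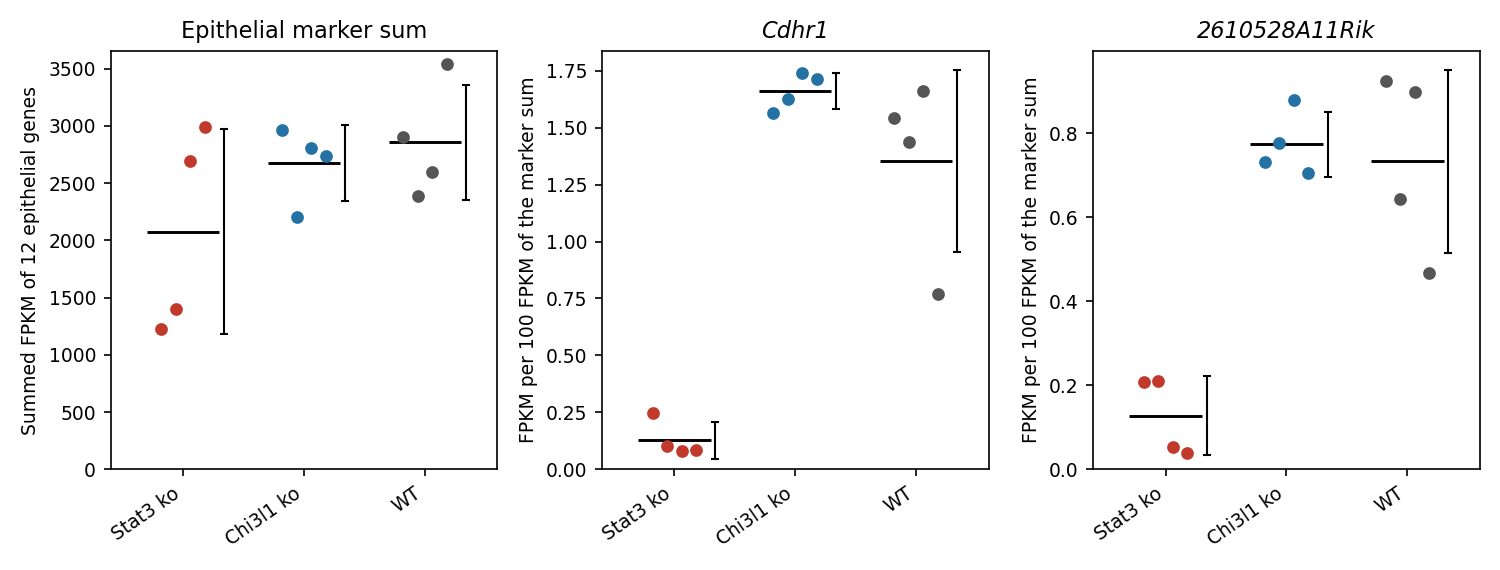
Left, the summed FPKM of 12 epithelial genes in each library; middle and right, FPKM of Cdhr1 and 2610528A11Rik per 100 FPKM of that sum. Points are libraries, lines and error bars the mean and SD of 4; the epithelial sums overlap between groups, and the Stat3 ko points of Cdhr1 (0.0783 to 0.248) and 2610528A11Rik (0.0385 to 0.210) lie below the rest.

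Genes of milk-producing cells were low in the same libraries as the pair. The sum of 12 luminal alveolar genes, all detected, was 567.5 to 1378 FPKM in Stat3 ko, 3691 to 4950 in Chi3l1 ko and 4027 to 5428 in WT, and 7 of the 12 fell, with a median of −2.02. Of 7 tested hormone-sensing luminal genes 1 fell and 1 rose (0 and 3 once the 3 libraries above 2% mitochondrial counts were left out). Over all libraries their list summed to 234.4 to 328.9 FPKM in Stat3 ko, 298.3 to 529.8 in Chi3l1 ko and 313.9 to 592.8 in WT. Of 7 basal genes limma called 0 (1 lower and 3 higher at an unadjusted p under 0.05, 3 higher with edgeR and 4 with DESeq2). Their sums were 41.6 to 344.4 FPKM in Stat3 ko, 100.5 to 124.8 in Chi3l1 ko and 52.9 to 136.1 in WT. Cdhr1 and 2610528A11Rik were scaled to the general epithelial sum and to Epcam only, not to this alveolar sum. The separation of the Stat3 ko libraries on the general epithelial scale need not hold on an alveolar one. The part of the alveolar genes in the values of Cdhr1 and 2610528A11Rik was not tested.

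Genes of some other cell types were higher in Stat3 ko. Adipocyte genes summed to 241.1 to 4474 FPKM in Stat3 ko, 68.9 to 592.9 in Chi3l1 ko and 43.0 to 144.6 in WT. Of these 3 of 8 rose (7 with edgeR, 6 without the 3 libraries above 2% mitochondrial counts). T cell genes summed to 31.9 to 312.0 FPKM in Stat3 ko, 21.7 to 40.6 in Chi3l1 ko and 18.3 to 39.3 in WT, and 3 of 10 rose (10 with edgeR). Without the 3 libraries above 2% mitochondrial counts, Stat3 ko 3 and 4 are left in that group. Limma then called 0 of the 10 T cell genes, with 9 higher at an unadjusted p under 0.05. Stat3 ko 2 had the highest T cell sum and the lowest Cdhr1 of its group, but also the highest 2610528A11Rik. Stat3 ko 1 had the highest adipocyte sum and the highest Cdhr1 of the group, with the lowest epithelial sum (1227 FPKM) and the lowest alveolar sum (567.5 FPKM). Of the remaining lists, 2 of 4 B cell, 6 of 11 macrophage, 1 of 7 fibroblast and 1 of 6 endothelial genes rose, and 1 of 3 neutrophil genes, S100a8, fell. Of all tested genes 5.61% were called higher and 8.39% lower. Without the 3 libraries above 2% mitochondrial counts the counts of these 5 lists were 1, 1, 0, 0 and 1 in the same order. Of all 13643 tested genes 616 were called higher and 658 lower in that setting. At an unadjusted p under 0.05 it gave 3 B cell, 7 macrophage, 3 fibroblast and 4 endothelial genes higher. Over all libraries the neutrophil genes did not move together, with a median of 0.43 for the 3 tested and 1 called higher with DESeq2. Their list summed to 5.43 to 43.97 FPKM in Stat3 ko, 26.55 to 37.41 in Chi3l1 ko and 27.77 to 37.48 in WT. Of 7 skeletal muscle genes 0 were called by limma, edgeR or DESeq2, with 0 at an unadjusted p under 0.05. The part of these cell types in the values of the pair was not tested.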

How the data were processed

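The submitters' processing notes name the builds GRCm38 and mm10 and, without versions or roles, Trimmomatic, STAR, HTSeq, limma and edgeR. The authors deposited FPKM for 54532 genes in 12 libraries with gene lengths. For the genes with an unadjusted p-value under 0.05, they also deposited raw counts, log2 fold changes and p-values of Stat3 ko and Chi3l1 ko against WT. The members, gene lists and tests were chosen with earlier results of these data known.

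Counts were recovered from the FPKM, the gene lengths and 1 total per library solved from the deposited counts. Of 270591 values above 0, 100% lay within 0.001 of a whole number, and after rounding 0 of 55832 deposited counts differed from the recovered ones. The tests used limma 3.58.1 (R 4.3.3) with an intensity trend on log2(FPKM + 1), for genes reaching 1 FPKM in 4 or more libraries. It fitted 3 group means, two-sided, with Benjamini-Hochberg adjustment over all tested genes and calls at an adjusted p under 0.05. Alternatives were 0.1 added in place of 1, no filter, a filter on the mean (5 FPKM or more), scaling by medians of ratios, a fit of the compared groups alone, dropping every library above 2% mitochondrial counts, and leaving out each library. The recovered counts were also tested with edgeR 4.0.16 (TMM, quasi-likelihood) and with DESeq2 1.42.0.

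The genes to name were the members, expressed genes within 1 Mb, the 5 most similar profiles for each of Cdhr1 and 2610528A11Rik, the targeted genes, Gpr15, Lrit3 and up to 4 called genes of each list, of which the main ones are given. The list of retinoid and opsin genes is not reported here. Other names (Crx, Nrl, Gnat1, Pde6b, Opn1sw, Prph2, Prom1 and the neighbouring pairs) were chosen after their values were seen. Coordinates are those of the deposited table, checked against GENCODE, and promoters are from RefSeq. Counting intervals cover counting error only.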

Additional observations from a re-analysis of the deposited data

Results flagged for a closer look

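Of 21 sets of 4 libraries examined for the 5 members, Ghitm and Ccser2, 5 had a library far from the other 3, where chance marks about 1 set in 20. For the members all of these were a read or a few: Lrit1 was at 0 FPKM in Stat3 ko 1 with 1 count in each of the other 3, Lrit1 was at 0.0279 FPKM (3 counts) in Chi3l1 ko 1 with 0 in the others, and Lrit2 was at 0.0206 FPKM (1 count) in Stat3 ko 1 with 0 in the others. Ghitm was at 93.8 FPKM in Chi3l1 ko 2, with the others of that group at 58.9 to 61.6, and Ccser2 was at 15.1 FPKM in WT 4, with the other WT libraries at 12.9 to 13.2. No group of Cdhr1 or 2610528A11Rik held such a library. The rate of 1 in 20 does not apply to Lrit1 and Lrit2, which had a few reads at most. In such genes 1 library with reads beside 3 at 0 is always marked.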

How the results depend on the processing

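Cdhr1 and 2610528A11Rik stood lower in Stat3 ko than in WT under all 20 alternatives. The difference of Cdhr1 was −4.01 with 0.1 added, −4.01 with edgeR and −4.004 with DESeq2, and −3.69 to −3.41 with each library left out. That of 2610528A11Rik was −3.34, −3.31 and −3.31 in the same 3 settings, −3.20 without the libraries with over 2% mitochondrial counts, and −2.99 to −2.70 with each library left out. In Chi3l1 ko against WT neither was called under any alternative (Cdhr1 0.12 to 0.36, 2610528A11Rik −0.08 to 0.17, lowest adjusted p 0.997). Ghitm and Ccser2 were not called in any of the 3 comparisons under any alternative. Ghitm came near the bound in Stat3 ko against WT. Its adjusted p there ran from 0.058 with DESeq2 to 0.530 with limma without the libraries with over 2% mitochondrial counts. The number of genes called in Stat3 ko against WT was 1911, and 1149 with no filter, 506 with only the compared groups, 3633 with DESeq2, and 571 to 3252 with each library left out (571 without WT 1, 912 without WT 3, 766 without WT 4, 1100 without Stat3 ko 2 and 3252 without Stat3 ko 4). In Stat3 ko against Chi3l1 ko it was 1799, and 1119, 505 and 3261 in the same settings and 611 to 2890 with each library left out (1074 without Stat3 ko 2, 2890 without Stat3 ko 4, and 611, 773 and 686 without Chi3l1 ko 1, 3 and 4). In Chi3l1 ko against WT it was 1, and 8 with DESeq2, and 1 with each library left out. The cause of these shifts was not tested. No paired analysis was possible because the labels give no replicate numbers that the groups share. Depth limits Lrit1, Lrit2, Rgr and Gpr15, which had at most 17 counts in any library.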
